A study of Homo sapiens with 9 samples.

Results

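The CDK inhibitor genes of the CIP/KIP family (CDKN1A, CDKN1B and CDKN1C) and of the INK4 family (CDKN2A, CDKN2B, CDKN2C and CDKN2D) were measured as mRNA in U2OS, an established human osteosarcoma line. The 7 genes were taken by name out of 70116 gene IDs, and each name matched 1 ID. Bulk poly(A) RNA was sequenced from 9 libraries in 3 groups of 3. The groups were PERK KO cells given palbociclib, wild-type (WT) cells given palbociclib, and WT cells given vehicle, with 4 days of drug. PERK, the product of EIF2AK3, is a stress kinase of the endoplasmic reticulum and was targeted with CRISPR/Cas9. The labels give neither the guide nor how many clones stand behind the knockout. PERK KO cells without drug were not analysed here, so every contrast of the genotypes is one under palbociclib, and loss of PERK and any other difference between the lines cannot be told apart.

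INK4 proteins are built of ankyrin repeats and bind CDK4 and CDK6, which keeps the D-type cyclins from activating these kinases. Palbociclib inhibits the same pair of kinases with a small molecule. CIP/KIP proteins bind assembled complexes of cyclins with CDKs, block those that hold CDK2, and can help cyclin D to assemble with CDK4 and CDK6. Both families act as brakes on entry into S phase, and their levels are set in part by p53, by FOXO factors and by Polycomb repression of the INK4 locus. U2OS is known to lack p16 and to retain p53.

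The libraries held 33674039 to 42577874 counts, and 19408 genes passed the filter on low counts, including 6 of the 7 inhibitor genes. EIF2AK3 averaged 18.7 ± 0.97 CPM in the KO libraries, against 34.8 ± 2.6 CPM in WT libraries on palbociclib and 33.1 ± 1.6 CPM in WT libraries on vehicle (mean ± SD, n = 3 each). CPM are counts scaled to a common library size with TMM factors. The KO level was 53.9% of that in WT cells on palbociclib (log2 -0.89 ± 0.068 SE, edgeR adjusted p = 5.98e-09), with no overlap, and an mRNA level does not show whether the protein was lost. All 7 markers fixed for osteosarcoma and mesenchymal cells averaged at least 1 CPM over the 9 libraries. They summed to 7810 to 9580 CPM in KO cells on palbociclib, 7520 to 8600 CPM in WT cells on palbociclib and 5140 to 5510 CPM in WT cells on vehicle. Of 5 haematopoietic markers CD3E was at 0 in every library, and their summed level was 0.329 to 0.895 CPM. The 5 endothelial markers, of which 2 averaged at least 1 CPM, summed to 3.54 to 5.84 CPM. Of the 6 epithelial markers 4 averaged at least 1 CPM, and KRT19 was below 0.1 CPM on average. The 6 summed to 554 to 577 CPM in KO cells on palbociclib and 844 to 897 CPM in WT cells on palbociclib. In WT cells on vehicle their sum was 632 to 667 CPM. The part of these markers in the results below was not tested.

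Set beside each other per kilobase of exon, the 7 genes covered a wide range, and CDKN1A held the largest share. CDKN1A, encoding p21, averaged 87.3 ± 5.0 CPM per kilobase in KO cells on palbociclib, 69.3 ± 4.3 in WT cells on palbociclib and 57 ± 2.0 in WT cells on vehicle. CDKN1B, encoding p27, followed with 17.0 ± 0.58, 16.5 ± 0.52 and 28.3 ± 1.8 CPM per kilobase in the same order of groups. CDKN2C, encoding p18, had 13.5 ± 1.2, 11.7 ± 0.96 and 22.5 ± 0.63. CDKN2D, encoding p19, had 6.79 ± 0.65, 6.97 ± 0.59 and 8.27 ± 0.60. These 4 genes kept this order in every group. CDKN2B, encoding p15, stood at 0.00603 ± 0.0061 CPM per kilobase in KO cells on palbociclib, 1.86 ± 0.43 in WT cells on palbociclib and 1.69 ± 0.48 in WT cells on vehicle. CDKN1C, encoding p57, stayed between 0.0973 and 0.223 on average, and CDKN2A, encoding p16 and p14ARF, had 3 counts in all 9 libraries together.

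**Figure D1:**
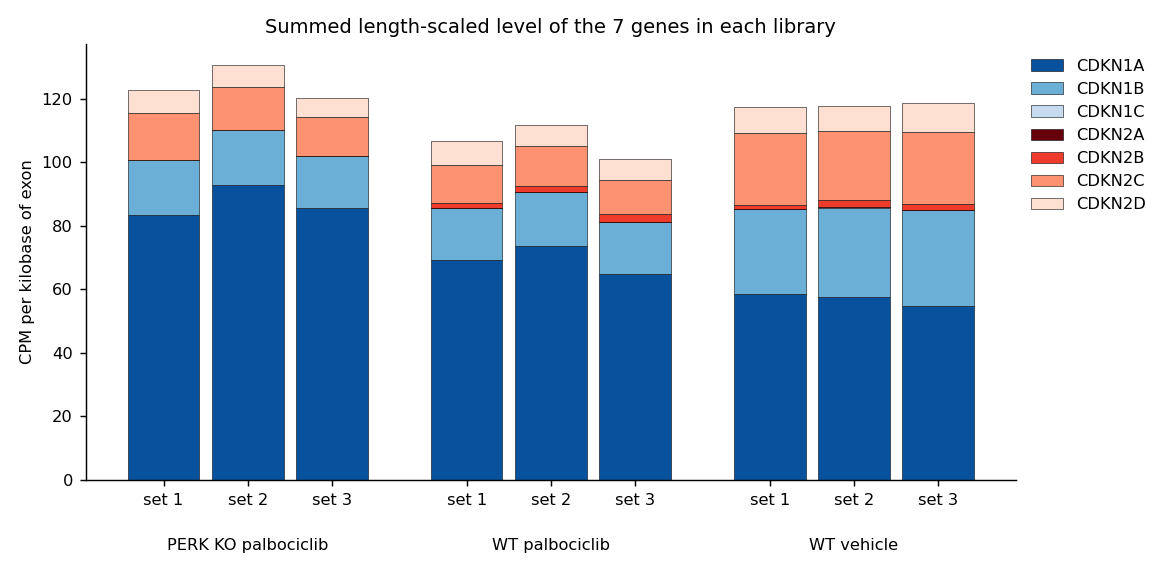
Stacked bars give the level of each of the 7 genes in CPM per kilobase of exon (y axis) in each library (x axis, sets 1 to 3 within a group). CDKN1A fills 67.9 to 71.0% of the bar in KO cells on palbociclib, 64.3 to 65.8% in WT cells on palbociclib and 46.1 to 49.8% in WT cells on vehicle.

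The summed CIP/KIP level was 101 to 110 CPM per kilobase in KO cells on palbociclib, 81.4 to 90.8 in WT cells on palbociclib and 85 to 86 in WT cells on vehicle. Within WT cells the drug group therefore overlapped the vehicle group in this sum, although its parts moved: CDKN1A made 80.6 ± 0.67% of it on palbociclib and 66.6 ± 2.1% on vehicle. The summed INK4 level was 18.5 to 22.1 CPM per kilobase in KO cells on palbociclib, 19.5 to 21.2 in WT cells on palbociclib and 31.7 to 33.6 in WT cells on vehicle. As a share of the summed level of CDK4 and CDK6, the kinases that INK4 proteins bind, it was 29.7 ± 3.3% in KO cells on palbociclib, 29.8 ± 1.6% in WT cells on palbociclib and 47.2 ± 2.5% in WT cells on vehicle (SD, n = 3 each). These sums are descriptions of mRNA and were not tested.

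The first comparison asked what 4 days of palbociclib did to the inhibitors in WT cells. CDKN1A rose, CDKN1B, CDKN2C and CDKN2D fell, and CDKN1C and CDKN2B did not pass the test. Of the 6 genes tested, 4 were called at an adjusted p under 0.05 (1 higher, 3 lower). Among all 19408 genes tested, 43.7% were called (21.3% higher and 22.3% lower), so 4 of 6 is not far from the background. The same 4 genes had ranges that did not overlap between groups, which held for 51.6% of all genes tested.

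CDKN1B lies on chromosome 12 (12715058 to 12722371, plus strand, GRCh38), and p27 is the CIP/KIP protein known for holding resting cells out of the cycle. WT libraries on palbociclib had 45.5, 48.0 and 45.5 CPM, against 74.9, 78.8 and 84.9 CPM in WT libraries on vehicle. The drug-treated libraries lay close together and well below each vehicle library. CDKN1B mRNA thus fell to 58.3% of its vehicle level (log2 fold change -0.78 ± 0.055 SE, 95% interval -0.89 to -0.66, edgeR adjusted p = 1.14e-09). In bulk RNA, fewer cells with the transcript and less transcript per cell cannot be told apart.

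CDKN2C, on chromosome 1 (50960745 to 50974633, plus strand), moved the most of the 6 genes. It had 40.1, 41.4 and 35.3 CPM in WT libraries on palbociclib, against 75.4, 72.2 and 76.2 CPM in WT libraries on vehicle. It fell to 52.2% (log2 fold change -0.94 ± 0.066, 95% interval -1.08 to -0.80, edgeR adjusted p = 1.46e-09). CDKN2D, on chromosome 19 (10566462 to 10569059, minus strand), encodes the INK4 protein p19. It had 11.5, 10 and 9.92 CPM in WT libraries on palbociclib, against 12.2, 11.6 and 13.4 CPM in WT libraries on vehicle. The groups were separated by a narrow gap, and the fall (log2 fold change -0.25 ± 0.095, edgeR adjusted p = 0.0407) depended on the settings. Its call was lost without WT palbociclib library 2 (edgeR adjusted p = 0.13) or 3 (0.17), and without WT vehicle library 1 (0.0574) or 3 (0.154). It was also lost with DESeq2 (adjusted p = 0.0955), and in edgeR with DESeq2 size factors (0.0582), upper-quartile factors (0.0578), no low-count filter (0.0661) or only the 6 libraries compared (0.0683).

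CDKN1A, on chromosome 6 (36676460 to 36687339, plus strand), is the classical p53 target among the 7. It had 211, 224 and 198 CPM in WT libraries on palbociclib, against 178, 176 and 167 CPM in WT libraries on vehicle. Each drug library was above each vehicle library, by 0.24, 0.35 and 0.25 on the log2 scale within sets 1, 2 and 3. The gene was 1.22 times its vehicle level (95% interval 1.12 to 1.32, edgeR adjusted p = 0.000316).

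CDKN2B, on chromosome 9 (22002903 to 22009363, minus strand), encodes p15, which is known as a target of TGF-beta signalling in epithelial cells. It had 5.78, 7.55 and 9.26 CPM in WT libraries on palbociclib, against 4.91, 8.81 and 6.91 CPM in WT libraries on vehicle. The groups overlapped, and set 1 was the lowest in both. The log2 fold change was 0.13 with a 95% interval of -0.34 to 0.60 (edgeR adjusted p = 0.652). CDKN2B also differed between sets when the set number was added to the fit (edgeR adjusted p = 0.00515, against 0.102 to 0.767 for the other 5 genes tested). The share of all genes that differed between sets was not computed, so whether CDKN2B is unusual in this cannot be told. CDKN1C, an imprinted gene on chromosome 11 (2883213 to 2885773, minus strand), had 12, 12 and 23 counts in WT libraries on palbociclib, against 22, 25 and 18 counts in WT libraries on vehicle. At this depth its log2 fold change was -0.36 with a 95% interval of -1.09 to 0.36 (edgeR adjusted p = 0.425).

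**Figure D2:**
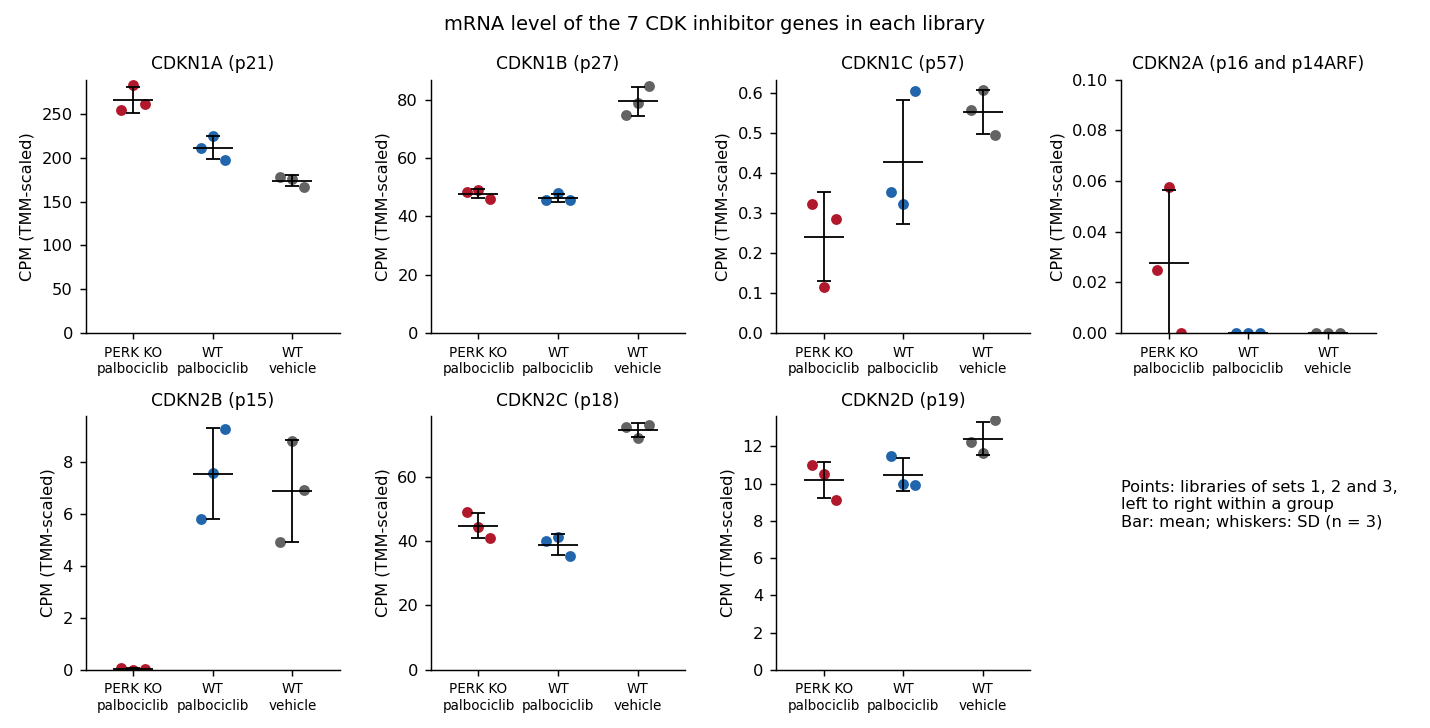
Each panel plots 1 gene in CPM (y axis from 0), with 1 point for each library, a bar at the mean and whiskers of 1 SD (n = 3), for PERK KO palbociclib, WT palbociclib and WT vehicle from left to right. CDKN2B is near 0 in the 3 KO libraries and between 4.91 and 9.26 CPM in the 6 WT libraries, while CDKN1B and CDKN2C separate vehicle libraries from drug libraries of either genotype.

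The second comparison set PERK KO cells against WT cells with both on palbociclib. CDKN2B transcripts were almost absent from the knockout libraries, CDKN1A was higher and CDKN2C slightly higher, and CDKN1B, CDKN1C and CDKN2D did not pass the test. The 3 calls among 6 genes tested (2 higher, 1 lower) stand beside 27.9% of all genes called (14.9% higher and 13.0% lower). Ranges of CPM did not overlap for CDKN1A, CDKN1C and CDKN2B, and for 41.3% of all genes. For CDKN1C the groups all but touched, at 0.3231 CPM in KO library 1 and 0.3235 CPM in WT palbociclib library 2. The unscaled counts of CDKN1C in these libraries were 13 and 12, so its ranges of counts overlapped.

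CDKN2B had 2, 0 and 1 counts in the KO libraries on palbociclib, against 196, 280 and 352 counts in WT libraries on palbociclib and 194, 363 and 251 in WT libraries on vehicle. Every WT library, treated or not, was thus far above every KO library. Summed over libraries this was 3 of 118797109 counts in KO cells, against 828 of 108339964 counts in WT cells on palbociclib. Per scaled library the KO level was 0.338% of the WT palbociclib level, with an exact 95% interval of 0.0695 to 0.99% that covers counting error only. The fitted log2 fold change was -8.03 (edgeR adjusted p = 4.38e-07), a value that depends on the prior count for a gene so near 0. It was called under each of the 15 alternatives tried, with fitted values of -8.85 to -7.57. Ranked by fitted log2 fold change it was number 5 from the lowest of 19408 genes tested. With CDKN2B, 5 genes tested were at most at 0.1 CPM in each KO library and at least at 1 CPM in each WT library. The others were TP73-AS1, TCF15, ZNF93 and ZNF675, on chromosomes 1, 20, 19 and 19, and they are named here after their values were seen. With a stricter limit of 5 CPM in each WT library only 1 gene passed. CDKN2B, at 4.91 CPM in its lowest WT library, did not.

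The nearest tested coding genes on either side of CDKN2B were well detected in both genotypes. MTAP, which encodes an enzyme of methionine salvage and ends 65.3 kb from CDKN2B on the side of CDKN2A, had 33.7, 35.7 and 35.6 CPM in KO libraries, against 35.4, 37.3 and 34.1 CPM in WT libraries on palbociclib. DMRTA1, 437 kb away on the other side, had 10.6, 10.4 and 11 CPM in KO libraries, against 9.43, 9.22 and 9.82 CPM in WT libraries on palbociclib. On the log2 scale MTAP differed by -0.02 ± 0.061 (SE, edgeR adjusted p = 0.811) and DMRTA1 by 0.17 ± 0.11 (edgeR adjusted p = 0.267). Over the 26 other genes tested within 5 Mb of CDKN2B the median log2 fold change was 0.03, with quartiles of -0.09 and 0.17. Whether the CDKN2B gene itself was altered in the knockout cells was not tested.

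CDKN2A, which lies 7.6 kb from CDKN2B (chromosome 9, 21967753 to 21995301, minus strand), was near 0 throughout. It had 1, 2 and 0 counts in the KO libraries and 0 counts in all 6 WT libraries. Both sides are at or under the 3 counts taken here as the floor of detection (0.0711 to 0.0884 CPM per library), so no fold was computed. The gene was not tested, and p16 and p14ARF transcripts, which share exons, could not have been separated. CDKN2B-AS1 (ANRIL), the long non-coding RNA that runs opposite to both genes, had 5 counts in KO cells on palbociclib, 2 in WT cells on palbociclib and 4 in WT cells on vehicle. It shares 341 exonic bases with CDKN2A and none with CDKN2B, and the labels do not state whether strand was used in counting, so reads of the shared bases cannot be assigned.

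The stretch just upstream of CDKN2B is shown as the sequence nearest to the largest difference, beside one from CDKN1A, which differed in the other direction. The CDKN1A stretch belongs to a start inside the annotated gene span given above, not to its outermost start. Its full window also holds annotated exons of CDKN1A and DINOL. The full CDKN2B window (22009306 to 22009555) likewise reaches into the gene span given above and holds annotated exon of CDKN2B. The printed CDKN2B stretch lies outside that span. Both come from RefSeq promoter windows on GRCh38.p14, 250 bases before the start, and only the part outside annotated exons of GENCODE release 29 is printed. Capitals mark GC boxes (GGGCGG or its reverse complement), a motif that SP1 family factors bind.
CDKN2B, chr9:22009364-22009555, minus strand: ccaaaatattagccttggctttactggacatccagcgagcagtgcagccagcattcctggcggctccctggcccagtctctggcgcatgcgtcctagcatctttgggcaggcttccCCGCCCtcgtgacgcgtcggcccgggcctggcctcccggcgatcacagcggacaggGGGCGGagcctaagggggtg
CDKN1A, chr6:36678560-36678657, plus strand: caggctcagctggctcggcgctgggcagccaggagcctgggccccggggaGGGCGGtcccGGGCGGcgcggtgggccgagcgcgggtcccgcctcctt

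The CDKN2B window held 18 CpG dinucleotides in its 250 bases and the CDKN1A window 27, against a median of 11 over 35116 RefSeq promoter windows. Of the 9 windows listed for 6 of the 7 genes, 7 held a GC box on either strand, as did 42.6% of all windows. CDKN2A and CDKN2C have more than 1 window each. The member windows held 45.6 to 77.2% G and C, most of them above the median of 58.0% over all windows. Matches were not adjusted for this composition. A CCAAT box was in 3 of the 9 windows and in 32.0% of all. No member window matched the E2F site spellings TTTCCCGC, TTTCGCGC, TTTGCCGC or TTTGGCGC (2.79% of all windows), the CHR element TTTGAA (13.3%), the FOXO spelling TGTTTAC (2.98%) or the ATF4 spelling TGATGNAA (3.14%). Both strands were searched and matches of GC boxes may overlap. These are matches of letters in short windows and say nothing on binding.

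CDKN1A had 254, 283 and 261 CPM in KO libraries on palbociclib, against 211, 224 and 198 CPM in WT libraries on palbociclib. Every KO library was above every WT library, and the difference was 0.27, 0.34 and 0.40 on the log2 scale within sets 1, 2 and 3. The KO level was 1.26 times the WT level (95% interval 1.16 to 1.36, edgeR adjusted p = 0.000104), and the call held under all 15 alternatives. Of 86 other genes tested within 5 Mb on chromosome 6, 41 were called lower in the knockout and 3 higher, against 13.0% lower and 14.9% higher over all genes, and the rest were not called. Their median log2 fold change was -0.35. CDKN1A lay 0.68 above that median, and 79 of the 86 neighbours were below it. DINOL, a non-coding RNA opposite to CDKN1A that shares 146 exonic bases with it, had 10 counts in KO cells on palbociclib, 31 in WT cells on palbociclib and 36 in WT cells on vehicle, beside 31041, 23018 and 20360 summed counts of CDKN1A in the same groups.

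**Figure D3:**
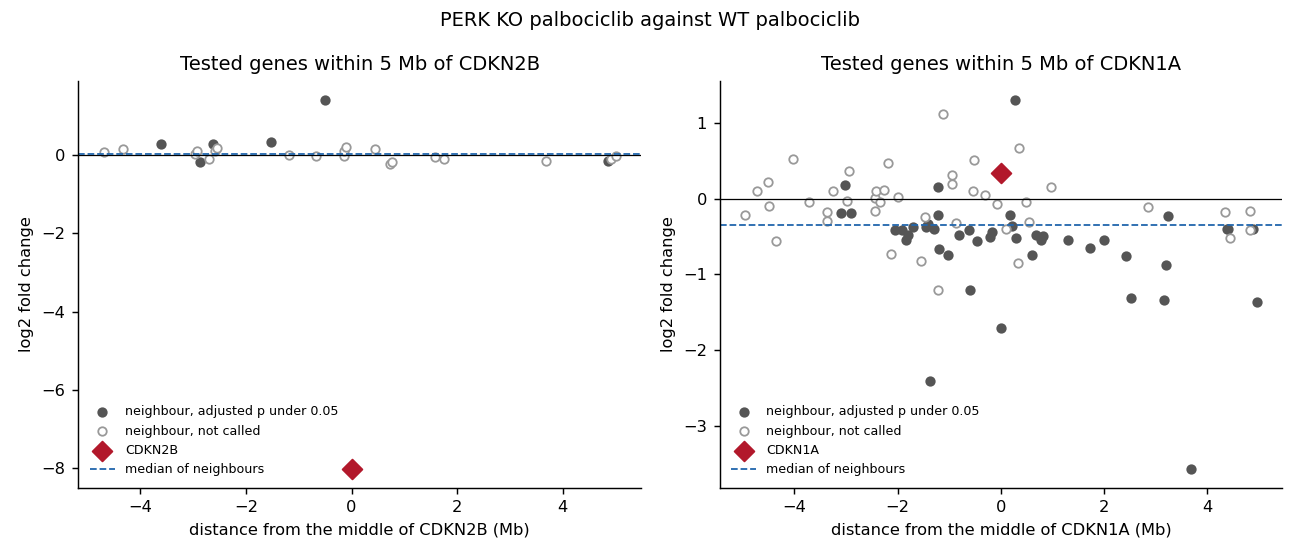
Each point is a tested gene, with its distance in Mb from the middle of CDKN2B (left) or CDKN1A (right) on the x axis and its log2 fold change, PERK KO palbociclib against WT palbociclib, on the y axis; filled points have an adjusted p under 0.05 and the dashed line is the median of the neighbours. CDKN2B sits at -8.03 among neighbours with a median of 0.03, and CDKN1A at 0.33 among neighbours with a median of -0.35.

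CDKN2C had 48.9, 44.5 and 41.1 CPM in KO libraries on palbociclib, against 40.1, 41.4 and 35.3 CPM in WT libraries on palbociclib. The groups overlapped by a small margin. The KO level was 1.15 times the WT level (95% interval 1.05 to 1.27, edgeR adjusted p = 0.0279). This call was lost without KO library 1 (edgeR adjusted p = 0.171) or 2 (0.0661) and without WT palbociclib library 3 (0.201), and with DESeq2 (adjusted p = 0.0737). CDKN1B had 48.5, 49.0 and 46.0 CPM in KO libraries on palbociclib, which overlapped the 45.5 to 48.0 CPM of WT libraries on palbociclib. The interval of its log2 difference was -0.07 to 0.16 (edgeR adjusted p = 0.597). Of 73 other genes tested within 5 Mb of CDKN1B, 24 were called higher in the knockout and 6 lower. Over all genes 14.9% were higher and 13.0% lower. The median log2 fold change of these neighbours was 0.22, and CDKN1B minus that median was -0.18. CDKN2D had 10.98, 10.5 and 9.11 CPM in KO libraries, within or below the 9.92 to 11.5 CPM of WT libraries on the drug, with an interval of -0.24 to 0.16 (edgeR adjusted p = 0.816). CDKN1C had 13, 4 and 12 counts in KO libraries, against 12, 12 and 23 counts in WT libraries on palbociclib, and an interval of -1.63 to 0.04 (edgeR adjusted p = 0.151).

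The third comparison, PERK KO cells on palbociclib against WT cells on vehicle, shares its libraries with the other two and combines drug and genotype. All 6 genes tested were called, 1 higher and 5 lower, against 51.7% of all genes tested (25.7% higher and 26.0% lower). Ranges did not overlap for any of the 6, nor for 58.5% of all genes. CDKN1A was at 153% of the vehicle level (log2 fold change 0.62 ± 0.055, edgeR adjusted p = 1.35e-08), so the 3 groups stood in the order KO on palbociclib, WT on palbociclib, WT on vehicle, with each step past the threshold. CDKN1B was at 60.2% (log2 fold change -0.73 ± 0.054) and CDKN2C at 60.1% (-0.74 ± 0.065, edgeR adjusted p = 1.51e-08). For CDKN1B the vehicle group was highest and the drug groups did not differ beyond their spread, and for CDKN2C WT cells on palbociclib were lowest.

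CDKN2D was at 82.1% of the vehicle level (log2 fold change -0.28 ± 0.095, edgeR adjusted p = 0.0159), a call lost without KO library 3 (edgeR adjusted p = 0.104) or WT vehicle library 3 (0.0749). CDKN1C was at 43.6% (log2 fold change -1.16 ± 0.38, edgeR adjusted p = 0.0144), with 29 summed counts in KO cells against 65 in WT cells on vehicle, and was not called without KO library 2 (edgeR adjusted p = 0.077) or WT vehicle library 2 (0.05003), nor with DESeq2 (adjusted p = 0.0535). CDKN2B was at 0.371% of the vehicle level by summed counts, 3 in KO cells against 808 in WT cells (exact 95% interval 0.0764 to 1.09%).

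**Figure D4:**
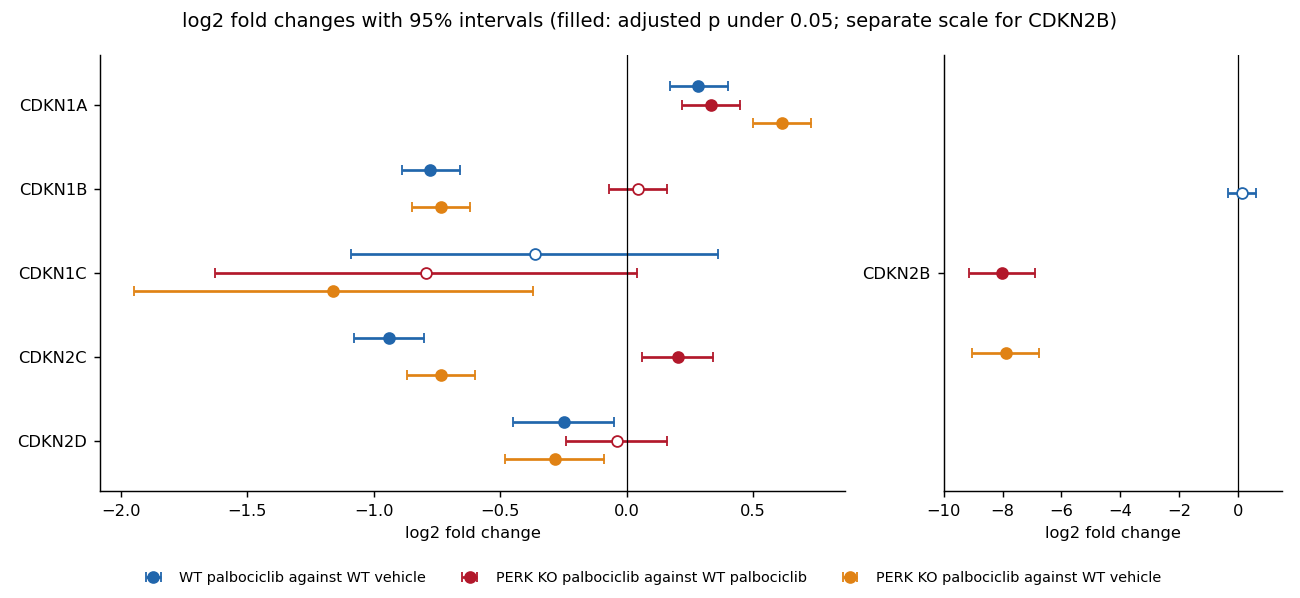
Points are log2 fold changes (x axis) of the 6 genes tested (y axis) in the 3 comparisons, with 95% intervals, filled where the adjusted p is under 0.05; CDKN2B has its own scale. CDKN1A is above 0 in each comparison, CDKN1B and CDKN2C are below 0 in both comparisons with vehicle, and CDKN2B is near -8 in both comparisons that involve the knockout.

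Genes with the most similar pattern over the 9 libraries were found as those with the smallest root mean square difference in log2 CPM, each gene centred on its own mean, among 10313 protein-coding genes with at least 5 CPM. For CDKN1B they were RAD51AP1 (0.041), KNTC1 (0.051) and DNA2 (0.052), where CDKN1B itself deviated from its mean by 0.36 on the same scale. RAD51AP1 acts in homologous recombination, KNTC1 at the kinetochore and DNA2 as a nuclease at replication forks. For CDKN2C they were CENPM (0.063), SMC4 (0.067) and GMNN (0.068), against its own deviation of 0.413. CENPM is a centromere protein, SMC4 a condensin subunit, and GMNN encodes geminin, which restrains the licensing of replication. The nearest to CDKN1A were DENND5B (0.038), ERGIC1 (0.042) and NAP1L3 (0.046).

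CDKN2D, whose own deviation was 0.161, was nearest to TMEM237 (0.056), POC5 (0.057) and FAM76A (0.059). For CDKN1C no gene came closer than 0.29, against its own deviation of 0.594. For CDKN2B the closest were CTSB (0.49), PAGE2B (1.2) and BST2 (1.3), against its own deviation of 3.12. CTSB, encoding the lysosomal protease cathepsin B, had a log2 fold change of -6.54 in KO cells on palbociclib against WT cells on palbociclib.

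**Figure D5:**
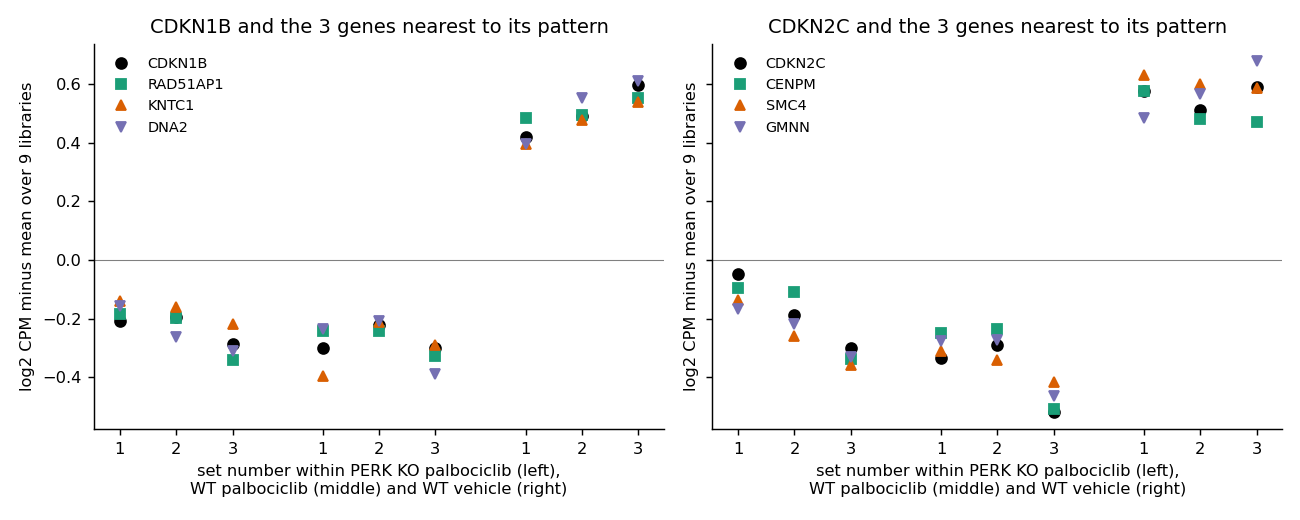
Points give log2 CPM minus the mean over 9 libraries (y axis) for CDKN1B (left) and CDKN2C (right) and the 3 genes with the smallest difference from each, in PERK KO palbociclib, WT palbociclib and WT vehicle libraries from left to right (x axis, set numbers). All 8 genes are below their mean in the 6 drug libraries and above it in the 3 vehicle libraries. The genes beside CDKN1B and CDKN2C were picked for likeness over these same libraries, so their shared direction is no separate result.

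Genes that work with the inhibitors were counted from fixed lists, in which rose, fell, higher and lower count called genes. Over all genes tested, 21.3% were called higher and 22.3% lower with palbociclib in WT cells, and 14.9% higher and 13.0% lower in KO cells against WT cells on the drug. Of 14 tested CDKs, cyclins and PCNA that the inhibitors bind, 4 rose and 8 fell with palbociclib in WT cells, with a median log2 fold change of -0.43 against -0.0213 over all genes. CCND2, encoding the D-type cyclin D2, had 525 ± 2.4 CPM on palbociclib and 173 ± 9.6 CPM on vehicle (log2 fold change 1.60 ± 0.050, edgeR adjusted p = 8.99e-15). PCNA, a replication clamp that p21 binds, had 170 ± 9.8 CPM on palbociclib and 294 ± 15 CPM on vehicle (log2 fold change -0.79 ± 0.061, edgeR adjusted p = 5.44e-09). In KO cells against WT cells on palbociclib 3 of the 14 were higher and 3 lower, with a median of -0.02.

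Of 20 tested genes for the turnover of CIP/KIP proteins, 11 fell and 2 rose with palbociclib in WT cells (median -0.20), against 22.3% lower and 21.3% higher over all genes. SKP2, the ubiquitin ligase subunit that targets p27, had 85.7 ± 5.7 CPM on palbociclib and 150 ± 2.0 CPM on vehicle (log2 fold change -0.80 ± 0.053, edgeR adjusted p = 5.36e-10), so the mRNAs of p27 and of its ligase subunit both fell. In KO cells against WT cells on the drug 2 were higher and 1 lower (median -0.04), where 27.9% of all genes were called. DTL, which serves a ligase that targets p21, was among the higher (0.21 ± 0.058, edgeR adjusted p = 0.00995).

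Of 22 tested Polycomb, DNA methylation and transcription factor genes known to act on the INK4 locus, 10 fell and 3 rose with palbociclib in WT cells (median -0.09). EZH2, the Polycomb histone methyltransferase, had 27.7 ± 0.5 CPM on palbociclib and 47.8 ± 2.0 CPM on vehicle (log2 fold change -0.79 ± 0.063, edgeR adjusted p = 5.92e-09). In KO cells against WT cells on the drug, 4 of the 22 were higher and 2 lower (median -0.03), a share near the 27.9% called over all genes. CBX2, a Polycomb reader, was higher (0.35 ± 0.055, edgeR adjusted p = 6.21e-05), and the DNA methyltransferase gene DNMT3B was lower (-0.32 ± 0.074, edgeR adjusted p = 0.00294).

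Of 23 tested transcription factors and RNA-binding proteins known to act on CIP/KIP genes, 8 rose and 8 fell with palbociclib in WT cells (median -0.03), and in KO cells against WT cells on the drug 3 were higher and 6 lower (median -0.08). Of 24 tested p53 targets other than CDKN1A, 11 rose and 5 fell with the drug in WT cells (median 0.10), against 21.3% higher and 22.3% lower over all genes. In KO cells against WT cells on the drug 10 were higher and 1 lower (median 0.05, against 0.0131 over all genes), where 14.9% of all genes were higher and 13.0% lower. ZMAT3 was among those that rose with the drug (0.92 ± 0.059, edgeR adjusted p = 3.46e-10), and FDXR, a mitochondrial reductase, was higher in the knockout (0.38 ± 0.054, edgeR adjusted p = 2.25e-05). Of 7 other genes named for binding CDKs or their inhibitors, 4 fell and 1 rose with the drug in WT cells (median -0.32), and 3 were higher and 1 lower in KO cells on the drug (median 0.16). CDKN3, a phosphatase of CDKs that belongs to neither family, had 82.3 ± 3.3 CPM on palbociclib and 159 ± 11 CPM on vehicle in WT cells (log2 fold change -0.95 ± 0.087, edgeR adjusted p = 2.78e-06).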

How the data were processed

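The authors deposited a table of unnormalized read counts by Ensembl gene, in which each library has a column of its own. The submitters' processing notes name STAR 2.7.9a, Trim Galore, FastQC, CASAVA, DESeq2 and the build hg38, without saying what each was used for. Which program counted reads, with which annotation and strand setting, is not given in the sources used here. Reads of overlapping genes may therefore be divided in ways that could not be checked.

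Of 70116 IDs, 62700 had a symbol and 58261 a position in GENCODE release 29 (GRCh38), which also gave exon lengths. Counts were fitted with edgeR 4.0.16 (R 4.3.3, limma 3.58.1, robust quasi-likelihood F test, TMM factors of 0.977 to 1.01, default low-count filter with a minimum count of 10). The 3 groups were fitted together over 9 libraries, which leaves 6 residual degrees of freedom, and Benjamini-Hochberg adjustment ran over 19408 genes with calls at an adjusted p under 0.05. edgeR gives no standard error for this test. Those printed are the absolute log2 fold change divided by the square root of F. The 95% intervals of fold changes were built from them and are approximate. The fit was tested on simulated data drawn without any effect of the set number. That test cannot show how the p-values behave where sets pair the libraries. Python 3.11.15, scipy 1.17.1 and matplotlib 3.10.9 served for tables, exact binomial intervals and figures. The alternatives were 2 other scalings, no filter, DESeq2 1.42.0, only the 6 libraries compared, the set number as a block, and leaving out each library.

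No label states that the sets come from separate cultures, so the p-values rest on a spread that may be technical. Replicates differed by more than sampling noise, with a chi-square of 3.45 to 10.7 times its degrees of freedom. Deviations from group means correlated at 0.18 to 0.54 in all 9 pairs of libraries with the same set number, over the 12932 genes whose log2 CPM averaged above 1, and at -0.4 to 0.071 in other pairs. Deviations from a group mean cancel out within the group, so the values of the other pairs are tied to those of the same set number. They are no separate support. By the positive values in pairs of the same set number, which come from these data and not from a label, the set numbers pair the libraries. The p-values printed are nevertheless from the fit without the set number, and the fit with it as a block is an alternative. Over all tested genes 6 of 9 pairs were above 0.1.

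The 7 genes, the gene lists and the rules were chosen with earlier results of these data known. Named genes were the 7, EIF2AK3, the 3 genes nearest in pattern to each called gene, and at most the 2 highest and 2 lowest called genes of a list with at least 5 CPM, of which some are given. The adjacent and overlapping genes and the upstream sequences were added after values were seen.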

Additional observations from a re-analysis of the deposited data

How the results depend on the processing

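Of 270 values of single genes (18 results under 15 alternatives), 248 kept their direction and their side of the threshold, 18 kept their direction and lost the call, and 4 changed sign. The 4 were not called in any setting: CDKN2B with palbociclib in WT cells at -0.02 without WT palbociclib library 3 and -0.06 without WT vehicle library 1, and CDKN2D in KO against WT cells on palbociclib at 0.04 without KO library 3 and 0.03 without WT palbociclib library 1. Over the libraries left out they ranged from -0.06 to 0.35 for CDKN2B and from -0.10 to 0.04 for CDKN2D. The lost calls concerned CDKN2D (11), CDKN2C (4) and CDKN1C (3), and the cause was not tested. With DESeq2 the calls of CDKN2D with palbociclib in WT cells (adjusted p = 0.0955), CDKN2C in KO against WT cells on palbociclib (0.0737) and CDKN1C in KO cells against WT vehicle (0.0535) were lost, and CDKN2D in WT cells also missed with DESeq2 size factors (0.0582), upper-quartile factors (0.0578), no filter (0.0661) and only the 6 libraries compared (0.0683). The set number as a replicate block changed no call of the 6 genes, and gave 9762, 7068 and 11154 calls over all genes against 8478, 5419 and 10036 without it. Leaving out each library gave 7357 to 8437, 4272 to 5705 and 9048 to 10354 calls over all genes, and 3 to 4, 2 to 3 and 5 to 6 calls among the 6 genes, in the order WT palbociclib against WT vehicle, KO against WT on palbociclib, and KO palbociclib against WT vehicle. Depth limits CDKN1C (141 counts in 9 libraries) and CDKN2A (3 counts).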
